A study of Mus musculus with 8 samples.

Results

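The CD300 receptor family was examined through 6 genes, Cd300a, Cd300c2, Cd300e, Cd300lb, Cd300ld and Cd300lf, chosen by gene name from the 56748 genes of the count table. Messenger RNA was sequenced from blood mononuclear cells, obtained by density gradient, of wild-type male C57BL/6J mice on a standard diet that entered the study at 8 weeks of age. One group of 3 libraries came from mice gavaged daily for 1 month with fucoidan, a sulphated polysaccharide of brown seaweed (here Undaria pinnatifida), at 200 mg per kg per day. The other group of 5 libraries came from mice gavaged with saline over the same time. The protocol text attached to the fucoidan samples names saline, whereas their titles and treatment labels name fucoidan, and grouping followed the titles. The labels call the libraries biological replicates without saying whether each is a single mouse, so p-values measure the spread between these libraries.

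CD300 proteins are cell surface receptors with a single immunoglobulin-like domain, found mainly on monocytes, granulocytes, dendritic cells and mast cells, and several bind lipids such as phosphatidylserine, phosphatidylethanolamine or ceramide. The family is paired. CD300A and CD300LF carry tyrosine-based inhibitory motifs in long tails that recruit the phosphatases SHP-1 and SHP-2, while CD300C2, CD300LD, CD300LB and CD300E have short tails and signal through the adaptors DAP12 or the Fc receptor gamma chain. The comparison of fucoidan with saline asks whether a month of oral fucoidan changes the expression of immune genes in blood.

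Total counts per library ran from 13061703 to 16334932, and haemoglobin transcripts took 3.51 to 8.48% of counts in saline libraries and 13.5 to 24.1% in fucoidan libraries. Of 9 erythroid and 9 platelet markers tested, all 18 rose with fucoidan, as did 9 of 10 natural killer markers, while 9 of 10 B cell markers fell. Monocyte markers were well represented in the labelled mononuclear preparation, and neutrophil markers were present too, with summed levels of 1013 to 2137 CPM (counts scaled by library size) after saline and 1043 to 1304 CPM after fucoidan. The member counts lay between 261 and 2715, at which counting error alone is 1.92 to 6.19% of a value. All values in CPM are scaled by TMM factors, which correct for differences in library composition.

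With fucoidan 1 member rose, 0 fell and 5 did not pass the test. The riser was Cd300e, an activating receptor of monocytes that signals through DAP12, at 2.13-fold. Calls rest on edgeR's quasi-likelihood test over 14723 genes at an adjusted p under 0.05, by which 13.8% of all tested genes were called, 9.11% higher and 4.65% lower. One scaling moved that split, since upper-quartile factors gave 1241 higher and 989 lower in place of 1341 and 684. A share of 1 in 6 members is near the background and is not a result about the family. The median log2 fold change was 0.13 over the 6 members and -0.04 over all tested genes.

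Cd300e (ENSMUSG00000048498, GRCm39 chromosome 11, 114942743 to 114953003, minus strand) stood at 29.7, 28.3, 21.5, 26.1 and 39.5 CPM in saline replicates 1 to 5 and at 64.5, 72.3 and 48.7 CPM in fucoidan replicates 1 to 3. The groups did not overlap, which held for 22.6% of all tested genes in either direction and for 11.6% in the higher direction. Saline replicate 5 was the highest of its group and fucoidan replicate 3, the library with the most haemoglobin, the lowest of its own. The means were 29.0 ± 6.64 CPM (SD, n = 5) and 61.9 ± 12.0 CPM (SD, n = 3), a log2 fold change of 1.09 (SE 0.181, 95% interval 0.70 to 1.49, edgeR adjusted p = 0.00411). On leaving out each library in turn the log2 fold change ran from 0.97 to 1.24, with the highest adjusted p at 0.0189. With the replicate number as a block it was 1.22 (adjusted p = 1.24e-04). Saline libraries numbered above 3 had no fucoidan library of the same number, so they did not inform this blocked estimate. Among them was saline replicate 5, the highest of its group, and leaving out that library alone gave 1.23. The blocked fit is therefore not separate support for a larger rise. All 16 alternatives called the rise. In bulk blood a higher level per cell and more cells that express the gene cannot be told apart.

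**Figure D1:**
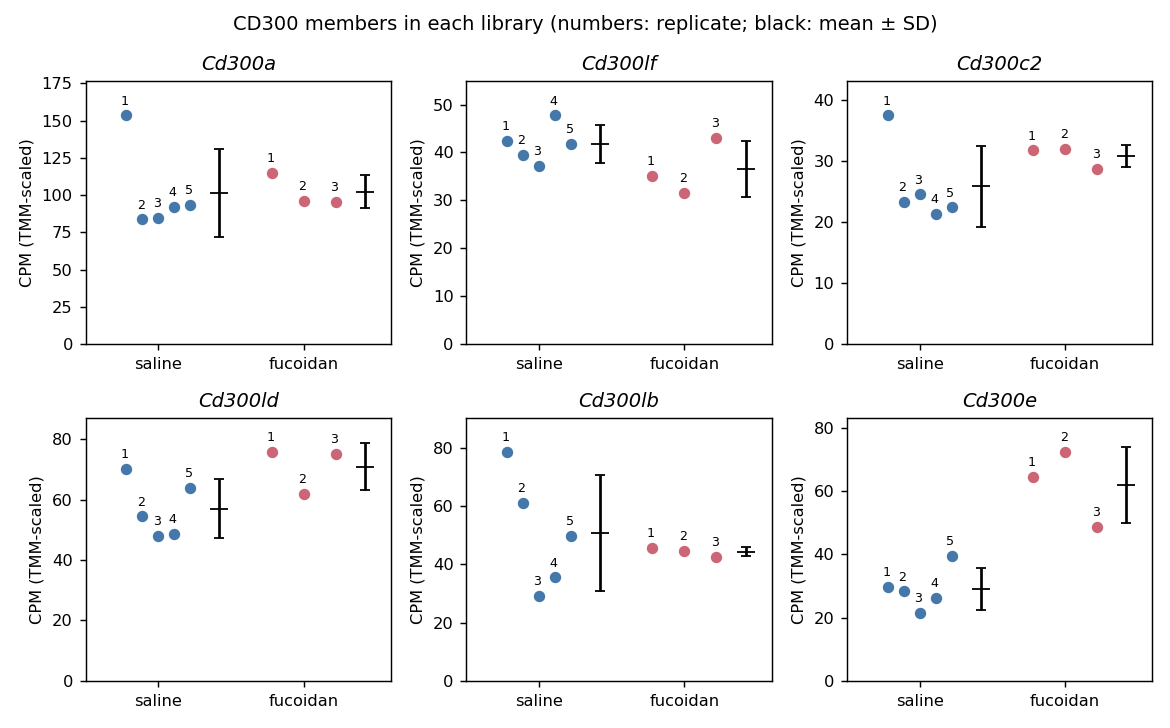
Level of each CD300 member in every library, in CPM scaled by TMM factors on the vertical axis; points are libraries numbered by replicate, and black bars give the mean ± SD of 5 saline and 3 fucoidan libraries. Cd300e is the panel in which the fucoidan libraries, at 48.7 to 72.3 CPM, all lie above the saline libraries, while saline replicate 1 stands high for Cd300a and Cd300c2.

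The sequence just upstream of Cd300e is shown beside those of Cd300ld, an activating member with the same motif whose groups overlapped, and Cd300lf, an inhibitory member at the far end of the cluster. Each is 250 bases, 5′ to 3′ on the gene's own strand, ending at the base before the RefSeq transcription start in build GRCm38.p6, which is an older build than that of the count table. Capitals mark AGGAAGT, a core recognised by ETS factors such as PU.1, the master regulator of myeloid genes. The windows are chr11:115062040-115062289 for Cd300e, chr11:114989887-114990136 for Cd300ld and chr11:115133993-115134242 for Cd300lf, all on the minus strand.
Cd300e: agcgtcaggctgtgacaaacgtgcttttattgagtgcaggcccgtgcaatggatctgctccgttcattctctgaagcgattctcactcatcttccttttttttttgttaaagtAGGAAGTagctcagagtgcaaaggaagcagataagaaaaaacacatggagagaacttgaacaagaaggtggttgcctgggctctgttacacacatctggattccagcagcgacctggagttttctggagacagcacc
Cd300ld: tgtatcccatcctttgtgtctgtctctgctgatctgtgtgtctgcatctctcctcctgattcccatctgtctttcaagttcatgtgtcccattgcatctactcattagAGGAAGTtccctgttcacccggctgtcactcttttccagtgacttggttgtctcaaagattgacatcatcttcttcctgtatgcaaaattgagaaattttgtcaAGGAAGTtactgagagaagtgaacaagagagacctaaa
Cd300lf: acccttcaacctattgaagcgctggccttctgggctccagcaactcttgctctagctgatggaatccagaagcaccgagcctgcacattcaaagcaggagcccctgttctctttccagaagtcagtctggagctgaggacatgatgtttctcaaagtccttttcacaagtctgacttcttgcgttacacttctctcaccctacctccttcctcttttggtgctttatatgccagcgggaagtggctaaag
Both strands were searched. AGGAAGT was found in 3 of 6 members (Cd300c2, Cd300e and Cd300ld), and in 7.69% of all 32851 promoters of this length in the table. In Cd300e it lies 137 to 131 bases upstream of the start, in Cd300ld once at 142 to 136 and once at 38 to 32, and in Cd300c2 at 26 to 20. The member that changed therefore shares this match with members that did not pass the test. Of the other motifs searched, AAAGGTCA (the element of NR4A factors, which are required for patrolling monocytes) and CACGTG (the E-box) were in 0 of 6 members and in 1.34% and 6.02% of all promoters. TTGCNNAA, read by C/EBP factors, was in 1 of 6 (Cd300a) and 9.56% of all, and TATAAA in 2 of 6 (Cd300lb and Cd300lf) and 12.4% of all. A match here is a string of letters and not a measured binding site.

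The inhibitory receptors did not pass. Cd300a (ENSMUSG00000034652, chromosome 11, 114780867 to 114795480, plus strand) encodes an inhibitory receptor for phosphatidylserine and phosphatidylethanolamine. It stood at 154, 83.8, 84.8, 92.0 and 93.4 CPM in the saline libraries and at 115, 96.4 and 95.3 CPM in the fucoidan libraries. Saline replicate 1 was above every fucoidan library, and the other saline libraries were below every one of them. The means were 102 ± 29.4 CPM (SD, n = 5) and 102 ± 11.1 CPM (SD, n = 3), with a log2 fold change of 0.01 (SE 0.191, 95% interval -0.41 to 0.43, edgeR adjusted p = 0.978). Its sign turned under several alternatives, and without saline replicate 1 it was 0.21 (adjusted p = 0.181).

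Cd300lf (ENSMUSG00000047798, chromosome 11, 115007040 to 115024818, minus strand), an inhibitory receptor that binds ceramide and sphingomyelin on mast cells, was the steadiest member among saline libraries. Its values were 42.4, 39.5, 37.2, 47.7 and 41.8 CPM after saline and 35.02, 31.6 and 43.02 CPM after fucoidan. Fucoidan replicates 1 and 2 lay below all saline libraries and replicate 3 among them. The log2 fold change was -0.19 (SE 0.124, 95% interval -0.47 to 0.08, adjusted p = 0.342). The gene lies inside Rab37, a Rab GTPase gene on the opposite strand, and the strand setting of the counting was not given in the sources used here, so reads of the pair may not be fully separated. Rab37 itself had a log2 fold change of 0.26 (adjusted p = 0.385).

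The other activating receptors did not pass either. Cd300ld (ENSMUSG00000034641, chromosome 11, 114873100 to 114880748, minus strand), which signals through the Fc receptor gamma chain, stood at 70.1, 54.4, 48.1, 48.6 and 63.9 CPM after saline and at 75.7, 61.8 and 75.04 CPM after fucoidan. Fucoidan replicates 1 and 3 were above all saline libraries and replicate 2 was not. Its log2 fold change of 0.31 (SE 0.141) had a pointwise 95% interval of 0.0037 to 0.62, but the adjusted p over all genes was 0.173.

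Cd300c2 (ENSMUSG00000044811, chromosome 11, 114887547 to 114892706, minus strand) encodes an activating receptor that pairs with DAP12 or the Fc receptor gamma chain. Its values were 37.5, 23.4, 24.6, 21.4 and 22.4 CPM after saline and 31.8, 32.1 and 28.7 CPM after fucoidan. The fucoidan libraries lay above saline replicates 2 to 5 and below replicate 1. The log2 fold change was 0.26 (SE 0.175, 95% interval -0.13 to 0.64, edgeR adjusted p = 0.376). Without saline replicate 1 it was 0.43 and passed (adjusted p = 0.0210), and limma-voom with quality weights called it as well (0.42, adjusted p = 0.0398). It was at 0.14 with the replicate block (adjusted p = 0.634).

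Cd300lb (ENSMUSG00000063193, chromosome 11, 114813607 to 114825212, minus strand), an activating receptor of DAP12 that takes part in the uptake of dying cells, varied most among saline libraries. It stood at 78.5, 61.1, 29.3, 35.5 and 49.7 CPM after saline, a coefficient of variation of 39.0%, and at 45.7, 44.4 and 42.6 CPM after fucoidan, one of 3.53%. The fucoidan values fell within the saline range. The log2 fold change was -0.20 (SE 0.266, 95% interval -0.78 to 0.38, adjusted p = 0.679), and it was 0.010 without saline replicate 1. The interval takes in changes of either sign, and the power to detect a change was not computed.

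Saline replicate 1 was the highest saline library for Cd300a, Cd300c2, Cd300lb and Cd300ld, but not for Cd300e or Cd300lf. It also had the highest summed level of the 12 shared monocyte markers, at 6690 CPM against 3650 to 4030 CPM in the other saline libraries and 3351 to 4371 CPM after fucoidan. The part of these markers in the members' levels was not tested.

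**Figure D2:**
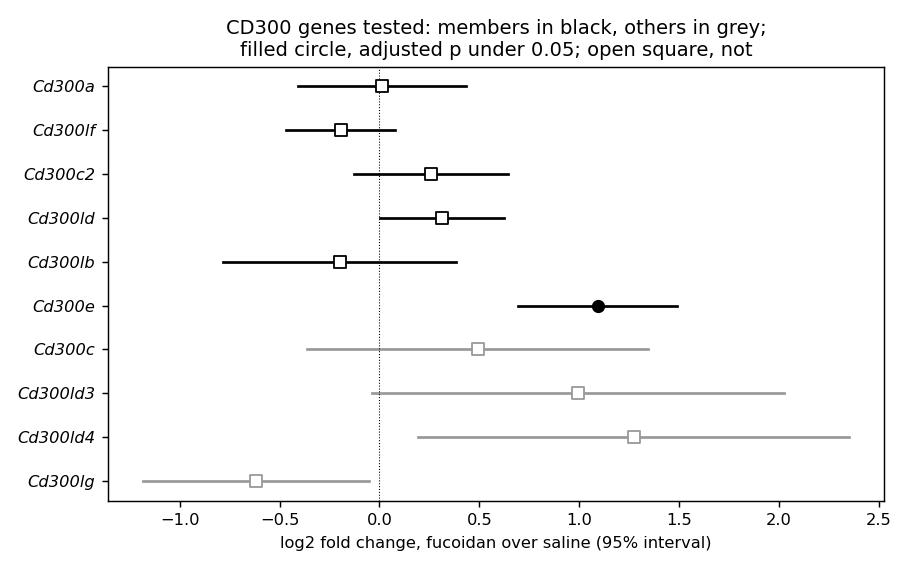
Log2 fold change of fucoidan over saline (horizontal axis) with its pointwise 95% interval for the 10 CD300 genes that passed the filter on low counts, 6 members in black and 4 other genes in grey. Cd300e, at 1.09, is the filled circle, which marks an adjusted p under 0.05, and the open squares are the genes that did not pass.

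The table holds 12 genes with a Cd300 symbol, and the 6 that are no members were scarce. Cd300lg, an endothelial member that lies apart from the cluster, had 9.57 ± 2.96 CPM (SD, n = 5) after saline and 6.19 ± 1.17 CPM (SD, n = 3) after fucoidan (log2 -0.62, SE 0.257, edgeR adjusted p = 0.143). With the replicate block it was called lower (-0.85, adjusted p = 0.0252). Cd300c, Cd300ld3 and Cd300ld4 were at 0.347 to 1.22 CPM on average after saline and had log2 fold changes of 0.49, 0.99 and 1.27 without a call (adjusted p = 0.453, 0.195 and 0.115). Cd300ld3 was called higher with the replicate block (1.45, adjusted p = 0.0456) and was at 0.41 without fucoidan replicate 2 (adjusted p = 0.697). Cd300ld4 was called higher with limma-voom (1.30, adjusted p = 0.0477). Cd300ld2 and Cd300ld5 did not pass the filter on low counts, with at most 5 counts in any library.

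Reads of paralogs could in principle be counted for one another, so the transcripts were compared in the GENCODE M21 set. Of all 150-base stretches of each member's transcript with the longest coding sequence, 0 occurred in a transcript of another gene on either strand; 150 bases was the read length. For Cd300ld3, Cd300ld4 and Cd300ld5 the shares were 79.5, 78.7 and 100%, and these 3 genes shared them with each other and with Cd300ld2. Their coding sequences were 99.5 to 99.9% identical, and the 250 bases upstream of Cd300ld4 and Cd300ld5 were 100% identical. Values of these copies are therefore uncertain, whereas the 6 members had no full-length match of this kind. The closest member pair, Cd300ld and Cd300lf, shared 83.9% of aligned coding bases over 65.1% of the longer coding sequence, followed by Cd300a and Cd300c2 with 81.3% over 70.8%, each an activating receptor beside an inhibitory one.

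Levels of different genes were compared per length, as FPKM, which is CPM divided by the gene length of the count table in kb. After saline the order was Cd300ld at 21.6 ± 3.67, Cd300a at 21.4 ± 6.21, Cd300c2 at 20.3 ± 5.19, Cd300lb at 17.4 ± 6.79, Cd300e at 13.9 ± 3.18 and Cd300lf at 8.10 ± 0.765 FPKM (SD, n = 5). By these lengths only the last step, from Cd300e to Cd300lf, had ranges that did not overlap. The neighbours before that step did not differ beyond their spread. After fucoidan Cd300e led at 29.6 ± 5.75 FPKM (SD, n = 3), followed by Cd300ld at 26.8 ± 2.96, Cd300c2 at 24.2 ± 1.45 and Cd300a at 21.6 ± 2.35 FPKM, whose ranges met from one to the next. Cd300lb at 15.2 ± 0.535 and Cd300lf at 7.10 ± 1.14 FPKM were set apart below them. Both orders depend on the length used. With coding lengths Cd300a and Cd300ld each held 23.3% of the summed level after fucoidan. Cd300e held 22.9% and did not lead, and Cd300c2, at 9.84%, lay below Cd300lb, at 12.6%. After saline the coding-length shares of Cd300e (9.78 to 16.8%) and Cd300lf (8.11 to 13.9%) overlapped, and Cd300c2 had the lowest mean, at 9.77%.

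By the table's lengths Cd300e made up 10.3 to 17.9% of the family's summed level in saline libraries and 19.9 to 27.7% in fucoidan libraries. Cd300lf made up 5.98 to 10.5% and 4.92 to 7.12%, and Cd300lb 12.1 to 21.2% and 11.9 to 12.4%. Cd300ld held nearly the same mean share, 21.1 ± 1.36% (SD, n = 5) and 21.6 ± 2.74% (SD, n = 3). The summed level itself was 103 ± 21.5 FPKM (SD, n = 5) after saline and 124 ± 6.95 FPKM (SD, n = 3) after fucoidan, with overlap. The ratio of the 4 activating to the 2 inhibitory members ran from 2.09 to 2.90 after saline and from 3.12 to 3.71 after fucoidan. Without Cd300e it was 1.65 to 2.36 and 2.23 to 2.41, and the groups overlapped. Shares depend on the length used, since the table's lengths span untranslated parts and all isoforms. With coding lengths Cd300c2 held 9.77% in place of 19.8% after saline and Cd300a 27.3% in place of 20.7%, while Cd300e held 12.9% after saline and 22.9% after fucoidan.

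**Figure D3:**
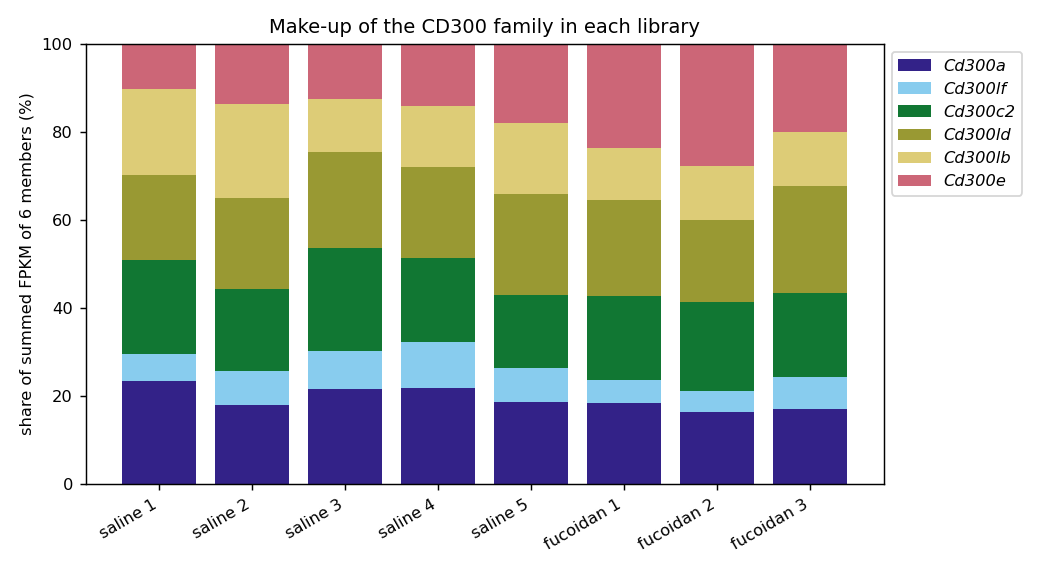
Share of the 6 members in their summed FPKM (vertical axis, %) in each of the 8 libraries on the horizontal axis. The Cd300e segment at the top spans 10.3 to 17.9% in the saline libraries and 19.9 to 27.7% in the fucoidan libraries.

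Lists of blood cell markers were set beside the members. Of all tested genes 9.11% were higher and 4.65% lower, and no list was tested against these shares. Of 13 markers of nonclassical monocytes, the patrolling subset, 4 rose, 1 fell and 8 did not pass, with a median log2 fold change of 0.41. Those that rose were the peptidase gene Ace (0.71), the integrin Itgax (0.72), the sialophorin Spn (0.46) and the phosphatase Dusp16 (0.87), and the transcription factor Pou2f2 fell (-0.45). The call of Ace was lost on leaving out fucoidan replicate 2 (adjusted p = 0.0515), and that of Spn on leaving out saline replicate 4 (0.0626), fucoidan replicate 1 (0.0906) or fucoidan replicate 3 (0.0533). That of Pou2f2 was lost in the blocked fit (0.0709) and in 4 fits that each left out a library, namely saline replicate 4 or 5 and fucoidan replicate 2 or 3 (0.0538 to 0.142). Other markers of the subset did not pass, such as the fractalkine receptor Cx3cr1 at -0.31 and Nr4a1, the factor on which the subset depends, at -0.52. The summed level of the 13 markers was 1405 to 1695 CPM after saline and 1405 to 1858 CPM after fucoidan, with overlap.

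Among 13 classical monocyte markers 3 fell and 0 rose; their median was -0.46, with summed levels of 1883 to 3011 CPM after saline and 1574 to 1735 CPM after fucoidan. Of 12 shared monocyte markers and 14 neutrophil markers, 0 passed in edgeR's test at an adjusted p under 0.05, with medians of -0.16 and -0.29. Csf1r, the receptor that defines the monocyte lineage, had a log2 fold change of 0.04. Macrophage markers summed to 14.3 to 31.01 CPM after saline and 7.54 to 12.8 CPM after fucoidan, and no listed marker of any cell type was at 0 in every library. The part of erythroid, platelet and natural killer content, whose markers rose in the same 3 libraries as Cd300e, was not tested.

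Measured against those lists, the log2 ratio of Cd300e to the mean of the nonclassical markers was -1.42 to -0.80 in saline libraries and -0.42 to -0.30 in fucoidan libraries. Its ratio to shared monocyte markers was -2.54 to -1.54 and -1.04 to -0.65, to classical markers -2.09 to -0.84 and -0.58 to 0.08, and to neutrophil markers -1.02 to 0.50 and 0.60 to 1.18. In each case the groups did not overlap, and the difference in means was 0.84, 1.24, 1.39 and 1.01 in that order. Taken against the median of the markers, the first and the last were 0.62 and 1.63. Cd300c2 also lay higher in all fucoidan libraries relative to shared monocyte markers (-2.41 to -2.20 against -2.02 to -1.81) and classical markers (-1.90 to -1.66 against -1.34 to -1.09), as did Cd300ld relative to classical markers (-0.86 to -0.15 against -0.14 to 0.04). The difference in means for Cd300c2 against shared monocyte markers was 0.43, and 0.27 against their median. Neither gene did so relative to nonclassical markers, where the differences were 0.02 for Cd300c2 and 0.06 for Cd300ld, and -0.19 and -0.15 against the median. Cd300a, Cd300lb and Cd300lf overlapped between groups in their ratios to all 4 lists. These ratios were described and not tested.

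**Figure D4:**
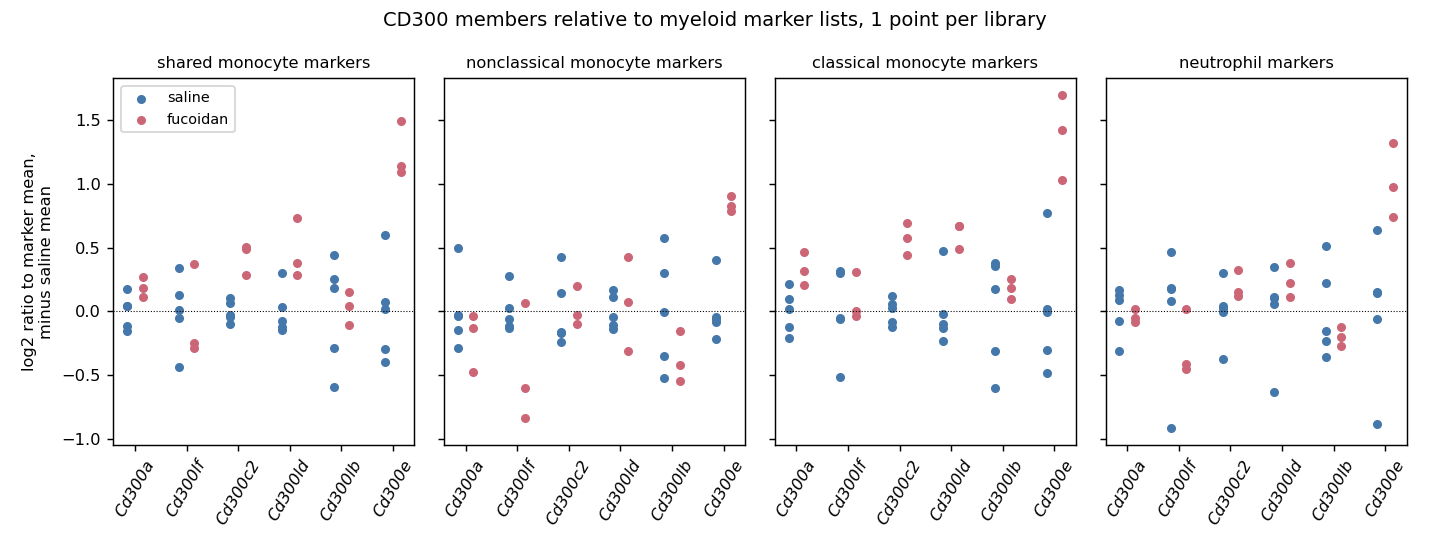
Log2 ratio of each member to the mean of 4 marker lists (vertical axis), shifted so that the saline mean is 0, with 1 point for each of 5 saline and 3 fucoidan libraries. The fucoidan points of Cd300e lie above its saline points in all 4 panels, with mean differences of 0.84 to 1.39.

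Of the 5 adaptors and partners, 0 passed edgeR's test, which called 13.8% of all tested genes. Tyrobp, which encodes DAP12, averaged 146 CPM after saline and 147 CPM after fucoidan (log2 0.00, SE 0.136, adjusted p = 0.991). Fcer1g, the Fc receptor gamma chain, went from 108 to 173 CPM across saline libraries to 151 to 183 CPM across fucoidan libraries, with overlap through saline replicate 1 (log2 0.46, SE 0.157, adjusted p = 0.0756). The DAP10 gene Hcst, the adaptor Grb2 and the interleukin-4 receptor gene Il4ra, whose signalling CD300LF can modify, had log2 fold changes of 0.19, -0.11 and -0.29.

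Of 8 genes on the inhibitory side, 2 rose and 1 fell, beside 9.11% of all tested genes higher and 4.65% lower. Ptpn11, which encodes SHP-2, went from 170 to 232 CPM in saline libraries to 295, 323 and 570.3 CPM in fucoidan libraries (log2 1.00, SE 0.199, adjusted p = 0.00788), the last being the library with the most haemoglobin. Without that library the log2 fold change was 0.65 and still passed. Ptpn6, which encodes SHP-1, had a log2 fold change of 0.06 (adjusted p = 0.800) and Inpp5d, the lipid phosphatase SHIP-1, one of 0.19 (adjusted p = 0.289). Of the docking protein genes, Dok2 rose by log2 1.12 (SE 0.210) and Dok3 fell by 0.59 on the log2 scale (SE 0.116). Dok1, at log2 0.34 (SE 0.127), did not pass. Most B cell markers fell in the same libraries, while most natural killer markers and all tested platelet markers rose. The part of cell content in the values of the docking protein genes was not tested.

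Of 17 genes downstream of the activating adaptors 0 rose and 2 fell, with a median of 0.01. Over all tested genes 9.11% were higher and 4.65% lower. Lat2, an adaptor of mast cells and B cells, was at -0.62 (SE 0.134), and the call was lost on leaving out fucoidan replicate 3 (adjusted p = 0.0574). Btk, the Bruton kinase, was at -0.38 (SE 0.103) and lost its call in the blocked fit (0.105) and in 6 fits that each left out a library, namely each fucoidan library and saline replicates 3 to 5 (0.0533 to 0.154). B cells express both genes; 9 of 10 B cell markers fell in the same libraries, and their part in these values was not tested. The kinase Syk, which binds the phosphorylated adaptors, was at 0.13 (SE 0.142, adjusted p = 0.621).

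Of 16 tested genes of phosphatidylserine sensing and exposure, 5 rose and 0 fell, beside 9.11% of all tested genes higher and 4.65% lower. Havcr2, which encodes the phosphatidylserine receptor TIM-3, went from 9.61 to 13.1 CPM in saline libraries to 19.8 to 25.1 CPM in fucoidan libraries (log2 1.04, SE 0.143, adjusted p = 0.00396). The bridging protein gene Pros1 and the integrin Itgb3, both expressed in platelets, rose by log2 1.31 and 1.495, though Itgb3 did not pass with no filter on low counts (adjusted p = 0.0544). The lipid flippase Atp11a was at 0.64 and lost its call when saline replicate 3 or 4 was left out, and likewise fucoidan replicate 2 or 3 (0.0567 to 0.148). The receptor kinase Tyro3 was at 1.10, and lost its call in the blocked fit (0.0586) and on leaving out any library but saline replicate 1 or 5 (0.0596 to 0.157).

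Of 37 tested genes of other paired receptors of myeloid cells 3 rose, 4 fell and 30 did not pass, with a median of -0.13. The shares over all tested genes were 9.11% higher and 4.65% lower. Fcgr4, an activating receptor for immunoglobulin G of nonclassical monocytes that signals through the Fc receptor gamma chain, went from 19.7 to 30.4 CPM after saline to 42.6 to 45.7 CPM after fucoidan (log2 0.90, SE 0.157, adjusted p = 0.00484). Treml2, a receptor of the TREM family, rose by log2 0.90 (SE 0.158). Lilrb4b, of the leukocyte immunoglobulin-like receptors, and Milr1, an inhibitory receptor of mast cells, were at -0.58 and -0.77, and neither passed on leaving out any 1 fucoidan library (0.0546 to 0.0921 and 0.0578 to 0.109).

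The cluster of 11 CD300 genes spans 114780867 to 115024818 on chromosome 11. Of 43 other genes that start within 500 kb of it, 24 were tested, with a median log2 fold change of -0.00077. Of the 24, 1 rose and 2 fell, beside 9.11% of all tested genes higher and 4.65% lower. Hid1, which encodes a Golgi protein of secretory granules, rose by log2 0.77 (adjusted p = 0.00481), while Kctd2 and Mif4gd were at -0.34 and -0.45 (adjusted p = 0.0363 and 0.0127). Kctd2 lost its call with the replicate block, with no filter on low counts, on leaving out saline replicate 3 or 4 and on leaving out any 1 fucoidan library (adjusted p between 0.0672 and 0.149). Mif4gd lost its call on leaving out fucoidan replicate 2 (0.0544) or 3 (0.0718). The CD300 genes next to Cd300e in the cluster, Cd300ld3 and Cd300lf, did not pass the main test. With the replicate block Cd300ld3 passed and Cd300lf did not.

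**Figure D5:**
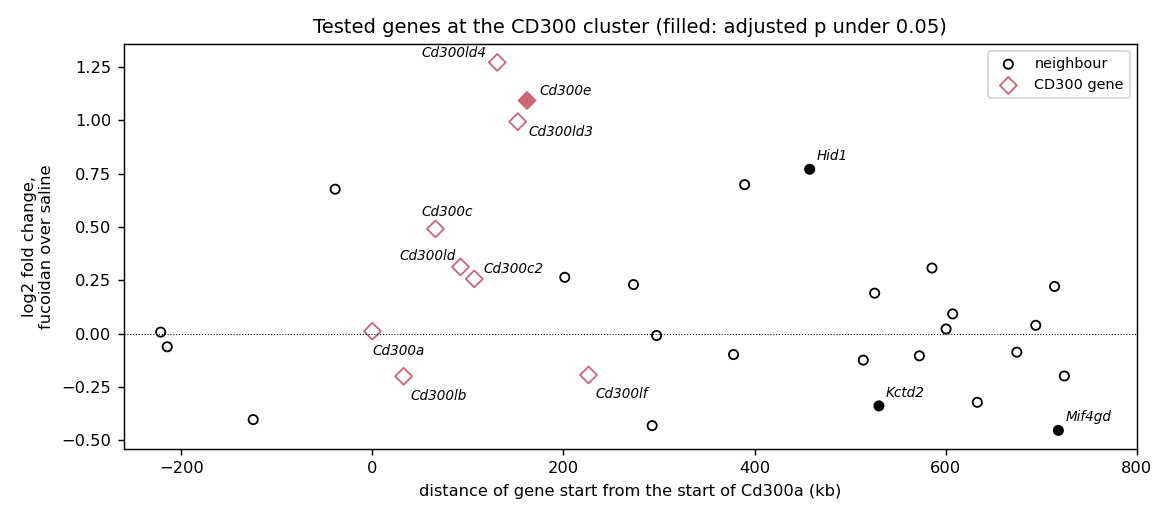
Log2 fold change of fucoidan over saline (vertical axis) against the distance of each gene's start from that of Cd300a in kb (horizontal axis) for tested CD300 genes of the cluster (diamonds) and 24 neighbours (circles). Filled symbols passed at an adjusted p under 0.05, and Cd300e at 1.09 is the filled diamond.

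Members varied together to different degrees across the 8 libraries. With group means removed, the log2 CPM of Cd300a correlated at Pearson r = 0.894 with Cd300c2, 0.727 with Cd300ld and 0.663 with Cd300lb, whereas Cd300e correlated at 0.103 to 0.491 with these 4 and Cd300lf at -0.273 to 0.277 with the other 5 members. These values share libraries and scaling and rest in part on saline replicate 1. The tested protein-coding genes most like Cd300e over the 8 libraries were the kinase gene Prkx (r = 0.978), Klrk1, which encodes the natural killer receptor NKG2D (r = 0.976), and Cadm3 (r = 0.970), of which Klrk1 rose with fucoidan. The closest to Cd300a was Arf2 (r = 0.984), to Cd300c2 Tmem51 (0.980), to Cd300lb Sh3bp4 (0.979), to Cd300ld Sec22b (0.982) and to Cd300lf Iqce (0.953), and none of these 5 passed the test. With group means removed the closest were Shprh for Cd300e (0.995), Batf for Cd300ld (0.986), Dnajb11 for Cd300c2 (0.987) and Cd209c for Cd300lf (0.951), while Arf2 (0.997) and Sh3bp4 (0.981) were again the closest to Cd300a and Cd300lb.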

How the data were processed

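The deposited table of the authors holds raw counts, whole numbers for 56748 genes, with names, coordinates and a gene length in bases. Per the submitters' processing notes, reads were processed with cutadapt 4.0, Trimmomatic 0.39 and HISAT2 2.2.1 on GRCm39 (mm39). The counting program, strand setting and annotation release were not given in the sources used here. Samples were grouped by title.

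Counts were filtered with filterByExpr, scaled with TMM factors and tested with edgeR 4.0.16 (quasi-likelihood, robust, R 4.3.3), Benjamini-Hochberg adjusted over 14723 genes. The SE is the absolute log2 fold change over the square root of the F statistic. Intervals use the total degrees of freedom of the test, which are the residual ones plus those borrowed across genes. Log2 CPM used a prior count of 2. The procedure was tested on simulated data. Libraries that share a replicate number correlated at 0.177, 0.233 and 0.144 with group means removed. Libraries with unlike numbers correlated at -0.261 to 0.144. The replicate number was used as a block on this ground, from the data and not the labels, and only as an alternative. Saline libraries without a fucoidan library of the same number do not inform the fold change in the blocked fit. The main fit was unpaired. All libraries carry 1 batch date.

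The members and gene lists were chosen with earlier results of these data known. Named were all CD300 genes, the 4 called genes of each pathway list with the smallest p, the adaptors, called neighbours, and up to 3 genes most like each member. Tyro3, Ptpn6, Inpp5d, Dok1, Syk and the cell type markers named were added after their values were seen. Upstream sequences are from RefSeq (GRCm38.p6, all 6 members matched), and transcripts from GENCODE M21. Protein sequences were not analysed here. Sequences were aligned with Biopython 1.88. Alternatives were other scaling, filters, tools (DESeq2 1.42.0, limma 3.58.1), the block and leaving out each library.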

Additional observations from a re-analysis of the deposited data

Results flagged for a closer look

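In saline replicate 1, Cd300a stood at 154 CPM, while the other saline libraries were at 83.8 to 93.4 CPM, a gap of 0.861 of the group's range. In the same library Cd300c2 stood at 37.5 CPM, against 21.4 to 24.6 CPM in the others, a gap of 0.803. Both gaps are above the 95% limit of Dixon's test for 5 samples (0.710). Of 14 sets of saline values examined these 2 were marked, and chance marks about 1 in 20. The sets share genes and libraries, so they are not independent. Both marks come from the same library, and Cd300a and Cd300c2 correlated at r = 0.894 with group means removed. The count of marks is therefore not evidence of an excess over chance.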

How the results depend on the processing

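Cd300e kept its direction and its call under all 16 alternatives, at log2 0.97 to 1.24. Cd300c2 was called with limma-voom (0.42) and without saline replicate 1 (0.43), where the number of members higher was 2 in place of 1, and not otherwise (0.14 to 0.32; 0.19 to 0.43 without each library). On leaving out each library the number of members higher was 1 or 2, and of members lower 0. The sign of Cd300a turned with upper-quartile factors (-0.035), no filter (-0.0030) and the replicate block (-0.017), and its values without each library ran from -0.083 to 0.21. That of Cd300lb turned with limma-voom (0.076), and its values without each library ran from -0.34 to 0.010. Of all genes, 1341 were higher and 684 lower, and without each library 746 to 1368 and 182 to 856. The fewest of both were left without fucoidan replicate 3, and the lower genes also fell past 1.5 times without fucoidan replicate 1 (365), fucoidan replicate 2 (315), saline replicate 3 (447) and saline replicate 4 (325). The lower genes numbered 439 with the replicate block and 1063 with limma-voom. The cause was not tested. The replicate block turned no call of a member, but Cd300lg and Cd300ld3 passed with it, and Pou2f2, Btk, Kctd2 and Tyro3 did not. It changed no call of the other CD300 genes tested or of the other called genes named from the lists and neighbours. Ratios to neutrophil markers turned sign with the median over markers, to 0.57 for Cd300a, 0.42 for Cd300lb and 0.33 for Cd300lf from -0.04, -0.20 and -0.28. Coding lengths came from GENCODE and were chosen after seeing the data, and the RefSeq protein lengths planned were not run. Without each library, shares moved by less than the SD among libraries. The depth limits statements on Cd300ld2 to Cd300ld5 and Cd300c.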
